A study of Mus musculus with 4 samples.

Results

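Glutamate uptake and the glutamine cycle were followed through 8 genes, taken by their symbols, in RNA bound to tagged ribosomes from mouse brain. They comprise 6 transporters (Slc1a2, Slc1a3, Slc1a1, Slc38a1, Slc38a2 and Slc38a3) and 2 enzymes (Glul and Glud1). All 8 were found among the 55471 genes counted, and all 8 passed the filter on low counts that left 15816 genes for testing. All mice carried GFAP-Cre+/- and Rpl22HA/wt, so that a Cre recombinase driven by the GFAP promoter tags a ribosomal protein from 1 of its alleles, and the tagged ribosomes are pulled down with the RNA they hold. The samples were 2 labelled cuprizone and 2 labelled mock, all given as 3 weeks and batch 1. The series' design text describes males aged 8 to 9 weeks, a diet of 0.2% cuprizone by weight or normal chow, pull-down from dissected corpus callosum, and collection after 5 weeks, 5.5 weeks or 7 weeks, which does not match the 3 weeks of the sample labels. Cuprizone is a copper chelator whose feeding kills oligodendrocytes and strips myelin. The labels do not say which GFAP-Cre line was used, nor whether a library came from 1 animal or from a pool, so the p-values reflect only how these libraries vary, which may be technical.

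Astrocytes clear glutamate from the extracellular space with sodium-coupled transporters of the Slc1a family. Inside the cell, glutamine synthetase (Glul) joins glutamate and ammonia to form glutamine, while glutamate dehydrogenase (Glud1) passes glutamate carbon into the citric acid cycle. Glutamine leaves astrocytes through system N transporters such as Slc38a3 and enters neurons through system A transporters such as Slc38a1 and Slc38a2, where it is turned back into glutamate. These steps together form the glutamate-glutamine cycle.

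Library totals ran from 21209517 to 23822620 counts, and 3 counts, the limit that a count of 0 allows, correspond to 0.126 to 0.141 CPM (counts scaled to the library total). That limit covers counting error only. The 10 astrocyte markers were all detected in every library, with summed levels of 4498 and 5156 CPM in cuprizone and 6249 and 7078 CPM in mock libraries. The 8 neuron markers summed to 14312 to 14395 CPM in cuprizone and 12542 to 12930 CPM in mock libraries. Most of that sum and of its difference came from Snap25, with means of 9954 CPM in cuprizone and 8294 CPM in mock libraries. Of the 8 neuron markers, 4 were higher and 2 lower without overlap between groups, against 25.7% and 18.9% of all tested genes. The 7 oligodendrocyte markers summed to 9376 to 12542 CPM in cuprizone and 12113 to 14035 CPM in mock libraries. With neuron and oligodendrocyte markers present in all libraries, a level given here cannot be assigned to astrocytes alone. Cuprizone replicate 2 stood apart in 7 markers of cerebellar granule cells, which summed to 1165.5 CPM there, 131 CPM in cuprizone replicate 1 and 45.0 and 33.9 CPM in the mock libraries, where 4 of the 7 were at 0. Cuprizone replicate 1 shared part of this: 6 of the 7 were higher in both cuprizone libraries than in either mock library, against 25.7% of all tested genes. Leaving out cuprizone replicate 2 thus lessens this difference between groups but does not remove it. Every fold of the 8 genes is also given without cuprizone replicate 2.

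The 3 Slc1a uptake transporters among the 8 genes were lower in each cuprizone library than in either mock library, against 18.9% of all tested genes. Slc1a2 encodes GLT-1, the main glutamate carrier of forebrain astrocytes. It lies at 102658659 to 102790784 on chromosome 2 of GRCm38, plus strand, and its counts, like those of the other genes, cover the whole gene without separating coding exons from untranslated regions. Slc1a2 measured 613 and 433 CPM in cuprizone replicates 1 and 2 and 1360.4 and 1836 CPM in mock replicates 1 and 2. The groups did not overlap, and the highest cuprizone library held less than the lowest mock library. Mean levels were 523 CPM ± 127 for cuprizone and 1598 CPM ± 336 for mock (SD, n = 2 each), which puts cuprizone at 32.7% of mock. The fitted log2 fold, cuprizone over mock, was -1.68 (SE 0.22) with an edgeR adjusted p of 0.0845, so it did not pass the threshold of 0.05 on p-values adjusted over all genes. Without cuprizone replicate 2 the log2 fold was -1.46, and without cuprizone replicate 1 it was -1.95, with edgeR adjusted p of 0.0646 and 0.0168; over the 14 alternatives it ran from 1.05e-13 (DESeq2) to 0.335. In bulk RNA, fewer cells of a type and less RNA per cell cannot be told apart. Of the 10 astrocyte markers, 4 were lower without overlap between groups (Aldoc, S100b, Fgfr3 and Gfap), against 18.9% of all tested genes. The other 6 overlapped, with Aqp4 at 82.8%, Gjb6 at 89.5%, Gja1 at 92.5%, Aldh1l1 at 97.6%, Slc4a4 at 108.5% and Sox9 at 116.8% of mock. The log2 fold was below 0 for 8 of the 10 markers, against 49.9% of all tested genes, with a median of -0.29. Aldoc (3104 against 4337 CPM) and Gfap (418 against 917 CPM) held most of the difference in the astrocyte marker sum. The granule cell markers were highest in the library with the lowest Slc1a2; the part of either marker list in this difference was not tested.

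Slc1a3 encodes GLAST, which is prominent in radial glia, in the Bergmann glia of the cerebellum and in astrocytes at large. It occupies 8634124 to 8710764 on the minus strand of chromosome 15. Its levels were 523 and 592 CPM in the cuprizone libraries and 899 and 867 CPM in the mock libraries. Here too every cuprizone value lay under every mock value, but the replicates lay closer together than for Slc1a2 and cuprizone replicate 2 was the higher of its pair. Cuprizone stood at 63.1% of mock, a log2 fold of -0.73 (SE 0.14; edgeR adjusted p = 0.148). The log2 fold was -0.84 without cuprizone replicate 2 and -0.64 without cuprizone replicate 1. A list of 4 Bergmann glia genes summed to 626 and 1211 CPM in cuprizone replicates 1 and 2 and to 672 and 688 CPM in mock libraries, most of it from a gene that oligodendrocytes also express (Sept4); its part in the Slc1a3 values was not tested.

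Slc1a1 encodes EAAC1, a carrier known mainly from neurons that also takes up cysteine. The gene runs from 28835049 to 28913960 on the plus strand of chromosome 19. It measured 36.1 and 30.1 CPM in cuprizone and 75.4 and 70.2 CPM in mock libraries, far below the glial carriers also per length, as given further on. The cuprizone mean was 45.4% of the mock mean and the groups were clearly apart. The log2 fold was -1.21 (SE 0.21), with an edgeR adjusted p of 0.133, and it was -1.09 without cuprizone replicate 2. Of the 8 neuron markers, 4 were higher and 2 lower without overlap between groups, against 25.7% and 18.9% of all tested genes; their part in the Slc1a1 values was not tested. A gene on the other strand, 4430402I18Rik, overlaps Slc1a1 and had 26 to 121 counts against 716 to 1668 for Slc1a1; with the strand setting unknown, reads from the shared stretch cannot be assigned.

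**Figure D1:**
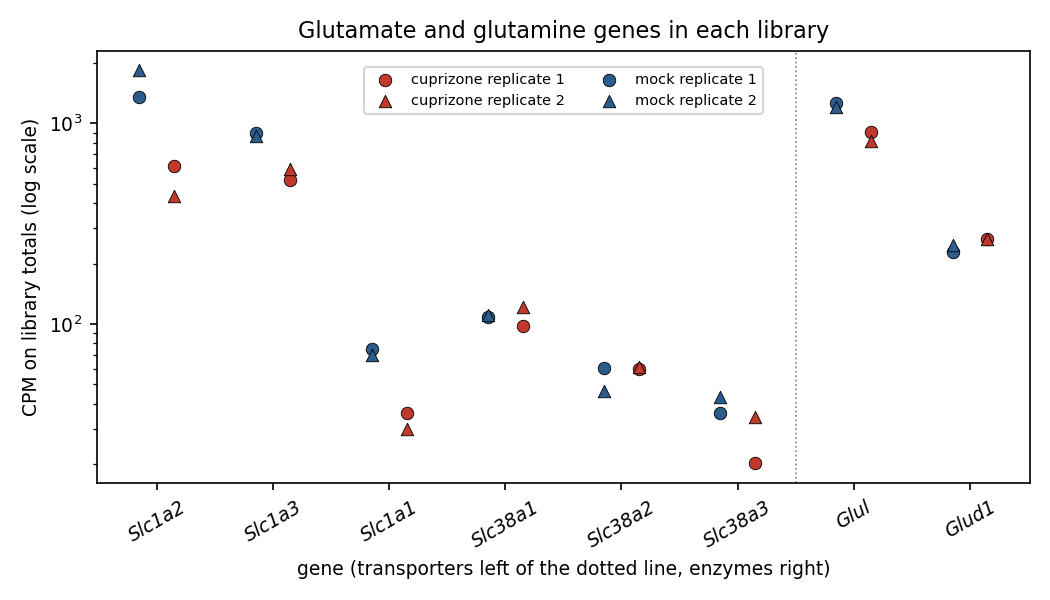
CPM on library totals (log axis) of the 8 genes, 1 point per library, with mock in blue and cuprizone in red and the marker giving the replicate number. Slc1a2, Slc1a3, Slc1a1, Slc38a3 and Glul lie lower in both cuprizone libraries, from 433 against 1836 CPM for Slc1a2 to 814 against 1267 CPM for Glul at the extremes.

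Of the 3 Slc38a glutamine transporters, Slc38a1 and Slc38a2 overlapped between groups and Slc38a3 did not. Slc38a1, a system A carrier for glutamine uptake by neurons (chromosome 15, 96571418 to 96642913, minus strand), measured 98.2 and 121 CPM in cuprizone and 109 and 111 CPM in mock libraries. The cuprizone pair enclosed the mock pair, and the log2 fold was -0.07 (SE 0.19; edgeR adjusted p = 0.955). Its sign turned with library-total scaling (log2 fold 0.00, from a value just above 0) and without cuprizone replicate 1 (0.08), and it was -0.24 without cuprizone replicate 2. Slc38a2, the system A carrier that cells induce when amino acids run short, lies beside it at 96687392 to 96699730. Slc38a2 had 59.6 and 60.7 CPM in cuprizone and 60.6 and 46.2 CPM in mock libraries, so that mock replicate 2 was the low one. Its log2 fold was 0.10 (SE 0.22; edgeR adjusted p = 0.932), which became 0.08 on leaving out cuprizone replicate 2 and -0.06 on leaving out mock replicate 2.

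Slc38a3, the system N carrier through which astrocytes release glutamine, lies at 107650634 to 107669530 on chromosome 9, minus strand. It stood at 20.2 and 34.4 CPM in cuprizone and at 36.1 and 43.5 CPM in mock libraries. The groups did not overlap, but cuprizone replicate 2 and mock replicate 1 were close, while cuprizone replicate 1 was the low library. The log2 fold of -0.61 (SE 0.33) had an edgeR adjusted p of 0.518. It depended on that library: without cuprizone replicate 1 it was -0.27, and without cuprizone replicate 2 it was -1.06.

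The 2 enzymes differed from each other. Glul, at 153899944 to 153909723 on chromosome 1, plus strand, measured 901 and 814 CPM in cuprizone and 1267 and 1210.4 CPM in mock libraries. Both cuprizone values were below both mock values, at 69.2% of mock on average, and the pairs were tight, with SDs of 61.4 and 40.3 CPM (n = 2 each). The log2 fold was -0.60 (SE 0.13), with an edgeR adjusted p of 0.178, and -0.54 without cuprizone replicate 2. Teddm2, on the opposite strand, overlaps the start of Glul and had 79 to 147 counts against 19389 to 28020 for Glul.

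Glud1, which feeds glutamate into mitochondrial oxidation, lies at 34310727 to 34345265 on chromosome 14, plus strand. It had 264 and 266 CPM in cuprizone and 228 and 248 CPM in mock libraries. The cuprizone values were both the higher ones, by less than the log2 fold's error: the fold was 0.08 (SE 0.14; edgeR adjusted p = 0.902), and it was 0.07 without cuprizone replicate 2 and ran from 0.03 to 0.17 with each library left out in turn. The ratio of the 2 enzymes within a library does not depend on scaling between libraries. Glul over Glud1 was 3.42 and 3.06 in cuprizone and 5.55 and 4.88 in mock libraries.

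The RefSeq promoters (GRCm38.p6) are shown for the astrocyte carrier with the tightest replicates, Slc1a3, and for both enzymes, because Slc1a3 and Glul were lower in the cuprizone libraries while Glud1 was not. Each window holds the 250 bases before the RefSeq start, 5′ to 3′ on the gene's strand, and capitals mark matches on either strand to the GC box (GGGCGG), the CCAAT box (CCAAT) and the TATA box (TATAAA).
Slc1a3 (chr15:8710808-8711057, minus strand): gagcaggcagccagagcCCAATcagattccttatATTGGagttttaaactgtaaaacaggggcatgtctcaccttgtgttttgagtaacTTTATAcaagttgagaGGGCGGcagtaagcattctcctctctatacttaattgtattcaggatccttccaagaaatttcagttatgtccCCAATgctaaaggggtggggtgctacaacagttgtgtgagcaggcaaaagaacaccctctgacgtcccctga
Glul (chr1:153899679-153899928, plus strand): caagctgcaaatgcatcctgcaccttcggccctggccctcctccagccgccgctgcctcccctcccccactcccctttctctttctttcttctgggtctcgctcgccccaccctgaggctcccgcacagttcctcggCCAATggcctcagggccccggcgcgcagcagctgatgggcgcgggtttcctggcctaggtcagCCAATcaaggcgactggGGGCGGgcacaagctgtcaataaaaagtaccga
Glud1 (chr14:34310477-34310726, plus strand): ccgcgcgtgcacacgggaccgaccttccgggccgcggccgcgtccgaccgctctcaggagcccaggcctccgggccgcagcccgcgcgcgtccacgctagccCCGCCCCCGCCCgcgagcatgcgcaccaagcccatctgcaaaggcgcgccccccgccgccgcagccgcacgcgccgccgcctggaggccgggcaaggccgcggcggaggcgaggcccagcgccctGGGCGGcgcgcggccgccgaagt

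Among the 3, Slc1a3 was the most AT-rich, with 44.8% GC, 1 GC box, 3 CCAAT boxes and 1 TATA box. Glul had 64.8% GC, 1 GC box and 2 CCAAT boxes. Glud1 had 82.0% GC, 3 GC boxes and neither of the other motifs. Among windows not shown, that of Slc1a1, also lower in the cuprizone libraries, had 70.4% GC, 1 GC box and neither of the other motifs. That of Slc38a2, which overlapped between groups, had 72% GC, 1 GC box and neither of the other motifs. Of the 32851 promoter windows in the RefSeq table, 32.7% held a GC box, 33.8% a CCAAT box and 12.4% a TATA box, and the median GC content was 52.4%. These matches describe the sequence and were not linked to the counts. The table held windows for 6 of the 8 genes. Its Slc1a2 window lies 47779 bases inside the gene, at an internal start, and is not shown. The Glul window lies within the annotated span of Teddm2, a protein-coding gene on the other strand.

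Counted over the whole set, 5 of the 8 genes were lower without overlap between groups (Slc1a2, Slc1a3, Slc1a1, Slc38a3 and Glul), against 18.9% of all tested genes, and 1 of 8 was higher (Glud1), against 25.7%. The log2 fold was below 0 for 6 of the 8, against 49.9% of all tested genes. edgeR called 0 of the 8 after adjustment over all genes, and called 0.0506% of tested genes lower and 0.0316% higher. At an unadjusted p under 0.05, 4 of the 8 were lower (Slc1a2, Slc1a3, Slc1a1 and Glul), against 7.04% of all genes. DESeq2 called the same 4, against 2.88% of all genes called lower, with DESeq2 adjusted p of 1.05e-13, 0.000323, 0.000587 and 0.00409 in that order. Their highest adjusted p over the 14 alternatives were 0.335, 0.44, 0.422 and 0.543. Slc1a2 was the 1 gene of the 8 called by limma-voom (against 0.285% of all genes called lower), with bias-adjusted dispersions (0.266%), with a mean of at least 1 CPM as the filter (0.385%) and without cuprizone replicate 1 (0.414%). With no filter, Slc1a2 and Slc1a1 were called (0.588%). The median log2 fold was -0.61 over the 8 genes and 0.001 over all tested genes. The genes were selected with results of these data known, so these counts describe them and do not set them apart from other genes.

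**Figure D2:**
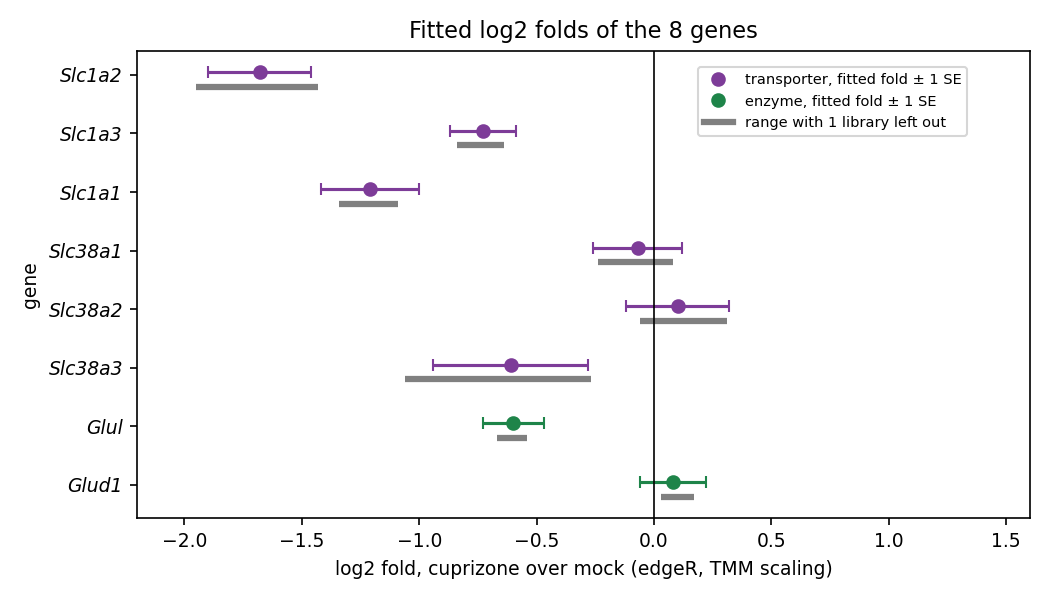
Fitted log2 fold, cuprizone over mock, of each gene with 1 SE either side (points; transporters purple, enzymes green), and the range of the fold when each library is left out in turn (grey bars). The bars of Slc1a2 (-1.95 to -1.43), Slc1a1 (-1.34 to -1.09), Slc1a3 (-0.84 to -0.64), Slc38a3 (-1.06 to -0.27) and Glul (-0.67 to -0.54) stay below 0, and those of Slc38a1 and Slc38a2 cross it.

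Levels of different genes were compared per length, as CPM per kilobase of annotated exon. In mock libraries Glul was highest, at 373 CPM per kb ± 12.1, followed by Slc1a2 at 122 ± 25.6 and Slc1a3 at 103 ± 2.64 (SD, n = 2 each), whose libraries overlapped. Glud1 came next at 56.6 ± 3.32. The remaining 4 genes lay far lower, Slc1a1 at 8.82 ± 0.453, Slc38a3 at 7.54 ± 0.989, Slc38a1 at 6.36 ± 0.0844 and Slc38a2 at 6.04 ± 1.16 CPM per kb, of which Slc38a2 overlapped both Slc38a1 and Slc38a3.

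In cuprizone libraries the order differed below Glul, which had 258 CPM per kb ± 18.5. Slc1a3 at 65.3 ± 5.72 and Glud1 at 62.9 ± 0.372 overlapped, and Slc1a2 followed at 39.8 ± 9.67 (SD, n = 2 each). Slc1a2 thus stood above Glud1 in both mock libraries, at 104 and 140 against 54.2 and 58.9 CPM per kb, and below it in both cuprizone libraries, at 46.6 and 33.0 against 62.6 and 63.2. Slc1a1, above all 3 Slc38a genes in mock libraries, had the lowest mean of the 8 genes in cuprizone libraries, 4.01 CPM per kb ± 0.517. Its values of 4.37 and 3.64 CPM per kb overlapped those of Slc38a3, 3.83 and 6.52. The lengths are unions of all annotated exons, which overstate the length of most transcripts.

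Transporters were then set against enzymes within each library, so that scaling between libraries drops out. The summed CPM of the 6 transporters over that of the 2 enzymes was 1.16 and 1.18 in cuprizone and 1.70 and 2.04 in mock libraries. Both sums were lower in cuprizone libraries. The transporters summed to 1311 CPM ± 55.3 against 2757 ± 306 and the enzymes to 1122 ± 59.8 against 1477 ± 26.3 (SD, n = 2 each). As a difference of mean log2 ratios the shift was -0.67, with a pooled SD between replicates of 0.13. In summed CPM the shift rested on Slc1a2. Without that gene the ratio was 0.633 and 0.777 in cuprizone and 0.789 and 0.780 in mock libraries. That left a shift of -0.16 with a pooled SD of 0.15. With the mean log2 level over genes in place of sums, and Slc1a2 kept, the shift was -0.45 with a pooled SD of 0.076. Summed Slc38a transporters over enzymes went the other way, 0.153 and 0.200 in cuprizone against 0.137 in each mock library. The Slc38a sum itself overlapped between groups, at 178 and 216 CPM in cuprizone and 205 and 200 CPM in mock libraries.

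Within the Slc1a family the balance between the glial carriers differed as well. Slc1a2 over Slc1a3 was 1.17 and 0.731 in cuprizone and 1.51 and 2.12 in mock libraries. The pairs did not overlap, with a shift of -0.95 on the log2 scale and a pooled SD of 0.42. Without cuprizone replicate 2, the library richest in granule cell markers, the shift was -0.61, and without cuprizone replicate 1 it was -1.29. Per length of exon, Slc1a2 made up 41.5% and 31.1% of the summed level of the 3 Slc1a carriers in cuprizone and 47.5% and 55.9% in mock libraries. Slc1a3 over Glul, in contrast, was 0.581 and 0.727 in cuprizone and 0.710 and 0.717 in mock libraries, so the cuprizone pair enclosed the mock pair.

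**Figure D3:**
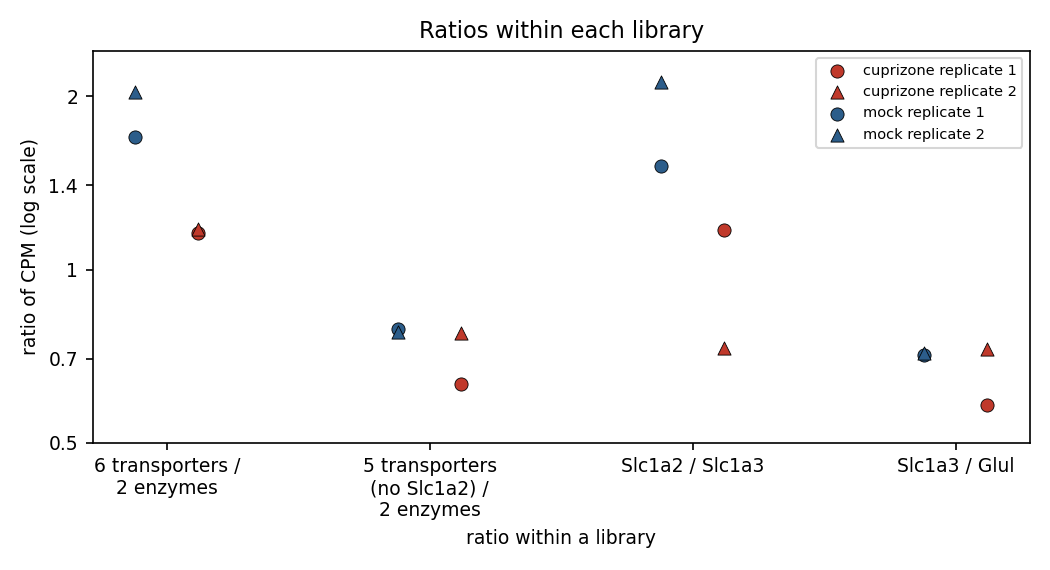
Ratios of CPM within each library on a log axis, with mock in blue, cuprizone in red and the marker giving the replicate. The ratio of 6 transporters to 2 enzymes and the ratio of Slc1a2 to Slc1a3 separate the groups, while the ratio of the other 5 transporters to the enzymes nearly meets between groups (0.777 and 0.780) and the ratio of Slc1a3 to Glul overlaps.

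The wider pathway was read from 9 lists that hold 58 further genes, 54 of which could be tested. edgeR called 0 of the 54 after adjustment. At an unadjusted p under 0.05, 8 were lower and 6 higher, against 7.04% and 5.73% of all tested genes, and DESeq2 called 4 lower and 2 higher, against 2.88% and 1.68%. Without overlap between groups, 14 were lower and 20 higher, against 18.9% and 25.7% of all tested genes, and the median log2 fold was 0.03. Those that DESeq2 called included Slc17a7, Slc25a18 and Kcnj10, all lower, and Gad1 and Gmps, both higher.

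Other amino acid carriers varied. Slc1a4, a neutral amino acid exchanger of the same family, had 22.0 and 40.3 CPM in cuprizone and 43.6 and 58.7 CPM in mock libraries. Its log2 fold of -0.78 (SE 0.35; edgeR adjusted p = 0.428) was -0.41 without cuprizone replicate 1 and -1.30 without cuprizone replicate 2. Of the 8 Slc38 genes outside the set, 6 could be tested and 4 had negative folds, against 49.9% of all tested genes. Slc38a7, a lysosomal glutamine carrier, stood at 10.3 and 11.7 CPM against 31.5 and 20.0 CPM, a log2 fold of -1.30 (SE 0.36; edgeR adjusted p = 0.247), and Slc38a10 at -0.70 (SE 0.30; 0.41). Slc3a2, the heavy chain shared by several exchangers including the cystine-glutamate antiporter, had 126 and 158 CPM in cuprizone against 181 and 205 CPM in mock libraries. Its log2 fold was -0.51 (SE 0.19) with an edgeR adjusted p of 0.332.

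Vesicular transporters load glutamate into synaptic vesicles of neurons. The 2 tested of 3 were lower in each cuprizone library than in either mock library, against 18.9% of all tested genes. Slc17a7 had 147 and 107 CPM against 172 and 234 CPM, and Slc17a6 23.0 and 9.99 CPM against 28.4 and 24.7 CPM, with cuprizone replicate 2 lowest for both. Their log2 folds were -0.75 (SE 0.23; edgeR adjusted p = 0.276) and -0.76 (SE 0.44; 0.548). Without cuprizone replicate 2 they were -0.54 and -0.29. The markers of forebrain excitatory neurons, among which Slc17a7 is listed, summed to 812 and 666 CPM in cuprizone replicates 1 and 2 and to 862 and 868 CPM in mock libraries; their part in these values was not tested.

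Beyond Glul and Glud1, the 15 other enzymes of the list were all tested. Of these, 11 had positive and 4 negative folds, where 49.9% of all tested genes had a fold below 0. The median was 0.29. Without overlap between groups 8 were higher and 1 lower, against 25.7% and 18.9% of all tested genes. edgeR called 0 of them, 2 were higher at an unadjusted p under 0.05 (5.73% of all genes), and DESeq2 called 1 higher (1.68%). Pcx, pyruvate carboxylase, which astrocytes use to make new glutamate carbon, had 32.1 and 59.5 CPM in cuprizone and 27.1 and 26.5 CPM in mock libraries. Its log2 fold of 0.71 (SE 0.34; edgeR adjusted p = 0.467) was 0.18 without cuprizone replicate 2. Gls2, a glutaminase that returns glutamine to glutamate, had 21.8 and 25.0 CPM against 11.0 and 16.6 CPM, a log2 fold of 0.69 (SE 0.35; 0.483), which ran from 0.43 to 1.04 with 1 library left out.

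Mitochondrial carriers split by gene. Slc25a18, a glutamate carrier enriched in astrocytes, stood at 108 and 132 CPM in cuprizone and 169 and 195 CPM in mock libraries, for a log2 fold of -0.67 (SE 0.19; edgeR adjusted p = 0.247). Slc25a22, the other glutamate carrier, overlapped between groups with -0.21 (SE 0.16; 0.663). The aspartate-glutamate carrier Slc25a12 had 0.13 (SE 0.17; 0.842) and the oxoglutarate carrier Slc25a11 0.04 (SE 0.15; 0.969), and both turned to -0.03 when cuprizone replicate 2 or cuprizone replicate 1, respectively, was left out.

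Genes that support or regulate uptake were mixed, with 3 of 8 lower and 3 higher without overlap between groups, against 18.9% and 25.7% of all tested genes. Kcnj10, the potassium channel Kir4.1, had 28.5 and 49.6 CPM against 67.5 and 112 CPM, a log2 fold of -1.27 (SE 0.36; edgeR adjusted p = 0.254), which was -0.92 without cuprizone replicate 1 and -1.74 without cuprizone replicate 2. Atp1b2, a beta subunit of the sodium pump, overlapped between groups (-0.01, SE 0.24; 0.994), and its sign turned under other settings. Sgk1, a kinase known to raise the surface level of several carriers, had 155 and 133 CPM in cuprizone and 104 and 75.0 CPM in mock libraries, for a log2 fold of 0.62 (SE 0.22; edgeR adjusted p = 0.318).

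**Figure D4:**
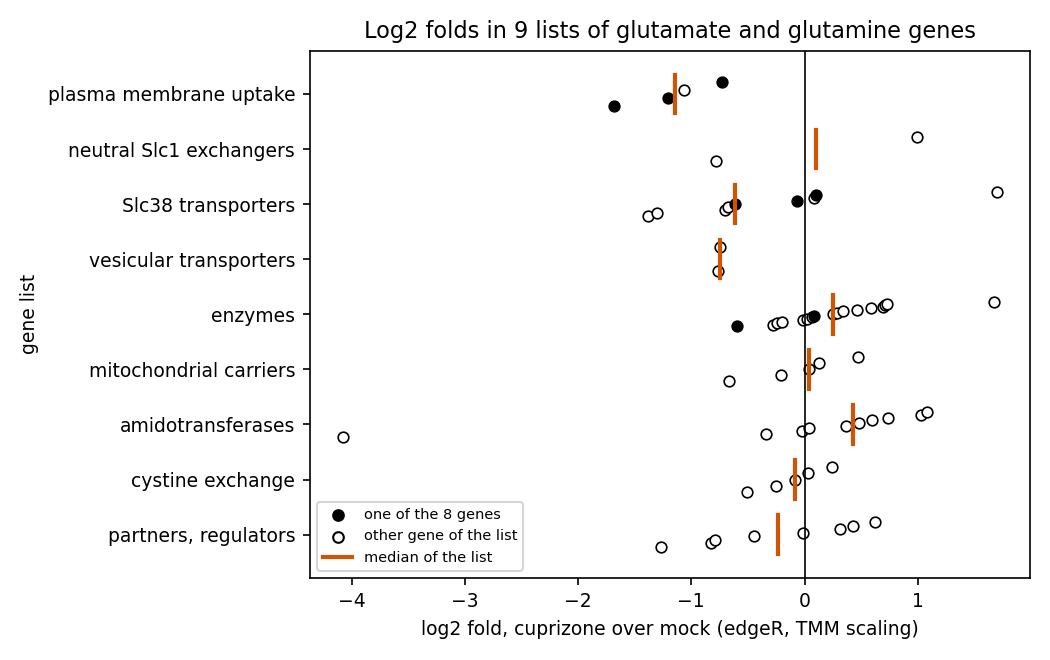
Log2 folds, cuprizone over mock, of every tested gene in 9 lists, with the 8 genes followed here filled and other genes open; orange bars give each list's median. The 4 tested plasma membrane uptake genes lie below 0, against 49.9% of all tested genes, with a median of -1.14. The enzymes have a median of 0.25, and the far left point is Nadsyn1, with 1 to 82 counts a library.

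Genes with the most similar profile were found over the 4 libraries as the smallest root mean square difference in centred log2 CPM among 4254 genes with a mean of at least 50 CPM. For Slc1a2 these were Dkk3 (0.125), Pon2 (0.136), Scg2 (0.147), Grin2a (0.168) and Ncan (0.171). Dkk3, a secreted protein related to Wnt antagonists, had 275 and 199 CPM in cuprizone and 536 and 686 CPM in mock libraries, with the 4 libraries in the same order as for Slc1a2. For Slc1a3 the nearest were Scn8a (0.0333) and Degs1 (0.0383), and for Glul they were Emc3 (0.0111), part of a membrane protein insertase, and Uxs1 (0.0172). With 4 libraries, these lists are a description only.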

How the data were processed

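RNA from HA pull-downs was sequenced in 4 libraries. The authors deposited unnormalized read counts for each Ensembl gene identifier. The submitters' processing notes name FastQC 0.11.9, STAR 2.5.4b and featureCounts 1.6.0 and GRCm38 (mm10). For annotation release, strand setting and multi-mapping reads, nothing is given in the sources used here. Symbols matched 55144 of 55471 identifiers; positions and exon lengths come from GENCODE M21.

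Levels are CPM on library totals. Tests used edgeR 4.0.16 in R 4.3.3 on all genes: filterByExpr, TMM (factors 0.974 to 1.031), glmQLFit (robust, legacy dispersions, the installed default) and glmQLFTest, 2-sided, Benjamini-Hochberg over 15816 genes, threshold 0.05, after a check on simulated counts. The SE is the log2 fold over the square root of F. Alternatives numbered 14, among them DESeq2 1.42.0 and limma-voom (limma 3.58.1).

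The members and all gene lists were chosen with earlier results of these data known. Named by rule were the 8 members and, of each list, the most abundant tested gene and up to 3 with a mean of at least 5 CPM whose groups did not overlap, by size of fold. The astrocyte markers given by name, Sept4, 4430402I18Rik, Teddm2, Nadsyn1 and Gabra6 were named after their values were seen. Results by list are given as counts and medians. For 1 gene named by this rule, values are not reported here. Other cell types' lists gave these summed CPM in cuprizone and in mock libraries: oligodendrocyte precursors 49.8 to 52.6 and 71.5 to 72.5, microglia 4.08 to 4.87 and 15.8 to 27.8, endothelium 0.183 to 3.23 and 0.452 to 1.32, pericytes and fibroblasts 16.2 to 16.4 and 27.5 to 52.6, ependyma 23.6 to 31.5 and 20.6 to 30.9, forebrain region genes 81.1 to 116 and 99.8 to 115.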

Additional observations from a re-analysis of the deposited data

How the results depend on the processing

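The folds of Slc1a2, Slc1a3, Slc1a1, Slc38a3 and Glul were negative, and that of Glud1 positive, in all 14 alternatives; Slc38a1 turned to 0.00 with library totals and ran from -0.24 to 0.08 with 1 library left out, and Slc38a2 from -0.06 to 0.31. Of the other named genes, Slc25a12 ran from -0.03 to 0.27, Slc25a11 from -0.03 to 0.10 and Atp1b2 from -0.43 to 0.31 with 1 library left out, and Atp1b2 turned to 0.06 with library totals. The 0 calls among the 8 genes became 4 with DESeq2, 2 with no filter on low counts (Slc1a2 and Slc1a1), and 1 each at a mean CPM of at least 1, with limma-voom and with bias-adjusted dispersions (Slc1a2 each time); leaving out 1 library gave 0 to 1 (Slc1a2 without cuprizone replicate 1). For Slc1a2 the edgeR adjusted p ran up to 0.335, without mock replicate 2. The 0 calls among the 54 other pathway genes became 6 with DESeq2, and leaving out 1 library gave 0 to 1 (Gad1 without cuprizone replicate 1). Over all genes, the 5 calls higher and 8 lower became 265 and 455 with DESeq2, 45 and 146 with no filter, 14 and 54 under the filter at 1 CPM, 11 and 45 with limma-voom, 9 and 42 with bias-adjusted dispersions, and from 2 and 3 to 52 and 71 with 1 library left out. The median log2 fold of the 8 genes ran from -0.69 to -0.46 with 1 library left out. The shift of the transporter to enzyme ratio was -0.45 with mean log2 levels and -0.16 without Slc1a2; that of Slc1a2 over Slc1a3 kept its sign with each library left out. With library-total scaling the median log2 fold of all tested genes was 0.071, against 0.001 with TMM. The difference between replicates 1 and 2 in cuprizone had a correlation of -0.012 with that in mock over 15816 genes. It shows no pairing by number, but 1 difference per group cannot exclude one. The replicate block gave 0 calls among the 8 genes, a median of -0.63 and 5 calls higher and 5 lower over all genes. The cause of these shifts was not tested. Both groups held 2 libraries, which limits precision; the effect of depth was not tested.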

Other observations

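Enzymes that spend glutamine had mostly positive folds, none of which passed the edgeR threshold. Of 10 amidotransferases tested, 7 had positive and 3 negative folds, where 49.9% of all tested genes had a fold below 0. Without overlap between groups, 5 were higher and 2 lower, against 25.7% and 18.9% of all tested genes. The median log2 fold was 0.43. edgeR called 0 of them, 2 were higher and 1 lower at an unadjusted p under 0.05, against 5.73% and 7.04% of all genes, and DESeq2 called 1 higher, against 1.68%. Gmps, which makes GMP, had 166 and 213 CPM in cuprizone and 101 and 114 CPM in mock libraries. Its log2 fold was 0.74 (SE 0.19), with an edgeR adjusted p of 0.233, 0.0155 by DESeq2, and up to 0.639 over the alternatives. Pfas, an enzyme of purine synthesis, had 32.0 and 42.6 CPM against 14.1 and 19.6 CPM, a log2 fold of 1.08 (SE 0.32; edgeR adjusted p = 0.261). Ctps2, which makes CTP, stood at 0.60 (SE 0.25; 0.403), and Asns, asparagine synthetase, at 0.37 (SE 0.17; 0.445).

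Gad1, which turns glutamate into GABA in inhibitory neurons, had 56.9 and 160 CPM in cuprizone replicates 1 and 2 and 40.9 and 24.1 CPM in mock libraries. Its log2 fold was 1.67 (SE 0.51) with an edgeR adjusted p of 0.272, which ran from 0.00181 (DESeq2) to 0.552 over the alternatives. Without cuprizone replicate 2 the log2 fold was 0.73, and without cuprizone replicate 1 it was 2.23. Gabra6, a receptor subunit typical of cerebellar granule cells, had 11.8 and 214 CPM in the same cuprizone libraries and 0 counts in both mock libraries; its part in the Gad1 values was not tested.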
